A study of Caenorhabditis elegans with 6 samples.

Results

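The transcriptome described here is that of control L1 larvae of *C. elegans*, the first larval stage. It was read in 3 of the 6 libraries of the series, replicates A, B and C of the control group, which were chosen by their labels alone. The larvae were wild-type N2 animals, with no transgene or mutation. Their parents had eaten bacteria carrying the empty RNAi vector for a day from the first day of adulthood and were then bleached, and the embryos hatched overnight in S-Basal, a buffer without food. Each library is a pool of whole larvae of both germ line and soma, so fewer cells of a type and less RNA per cell cannot be told apart. The libraries were made by 3SEQ, which reads poly-A RNA near the 3′ end. The study's methods describe such data as little affected by gene length, so levels of different genes are compared below in CPM, the count scaled to a library total of 1000000, without division by length.

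An L1 larva that hatches without food arrests its development until it is fed. Its body already holds a pharynx, body-wall muscle, an intestine, neurons and an epidermis covered by a collagen cuticle, while its gonad holds only a few precursor cells. Ribosomal protein mRNAs are among the most abundant in most growing eukaryotic cells, and cuticle collagen mRNAs are made in the epidermis in waves before each moult and before hatching.

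The libraries held 13700707, 19945971 and 17584345 counts for A, B and C, over 20351 gene rows. More than 3 counts in every library were found for 10249 genes, and 4291 genes had no count in any. A level of 3 counts, taken as the floor, lies at 0.219, 0.150 and 0.171 CPM in A, B and C. Protein-coding genes took 99.4% ± 0.0602 (SD, n = 3) of the counts. The libraries are biological replicates according to the study's methods. All values below are descriptions of this one group, with no test.

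A small number of genes held most of the larval RNA. The 100 genes with the highest mean CPM took 81.0% of the counts in A, 83.7% in B and 84.5% in C, and the single highest gene took 11.5%, 5.01% and 9.32%. When genes were ranked within each library, 20, 28 and 21 genes sufficed for 50% of the counts. The number needed for 90% was 331 in A, 189 in B and 198 in C. A thus needed the fewest genes for 50% and the most for 90%. The lists of the 100 highest genes shared 81 genes among all 3 libraries. Of the pairs, B and C shared 92, A and C shared 88, and A and B shared 82.

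Of the 100 highest genes, 49 carry symbols of cytosolic ribosomal proteins and took 51.5% ± 5.18 (SD, n = 3) of all counts. Another 16 encode cuticle collagens and took 8.02% ± 0.653. A further 23 genes belonged to none of the 28 gene families listed here and took 20.2% ± 3.31, and 13 of these carry only a sequence name in the annotation (16.3% ± 3.29). As families were set by symbol, the ribosomal and collagen shares leave out any gene with only a sequence name, whatever it encodes. The remaining places went to a few members of other families, among them *nlp-24*, *nlp-34*, *nlp-33*, *mlc-2*, *unc-27*, *eef-2*, *aldo-2* and *hsp-1*.

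**Figure D1:**
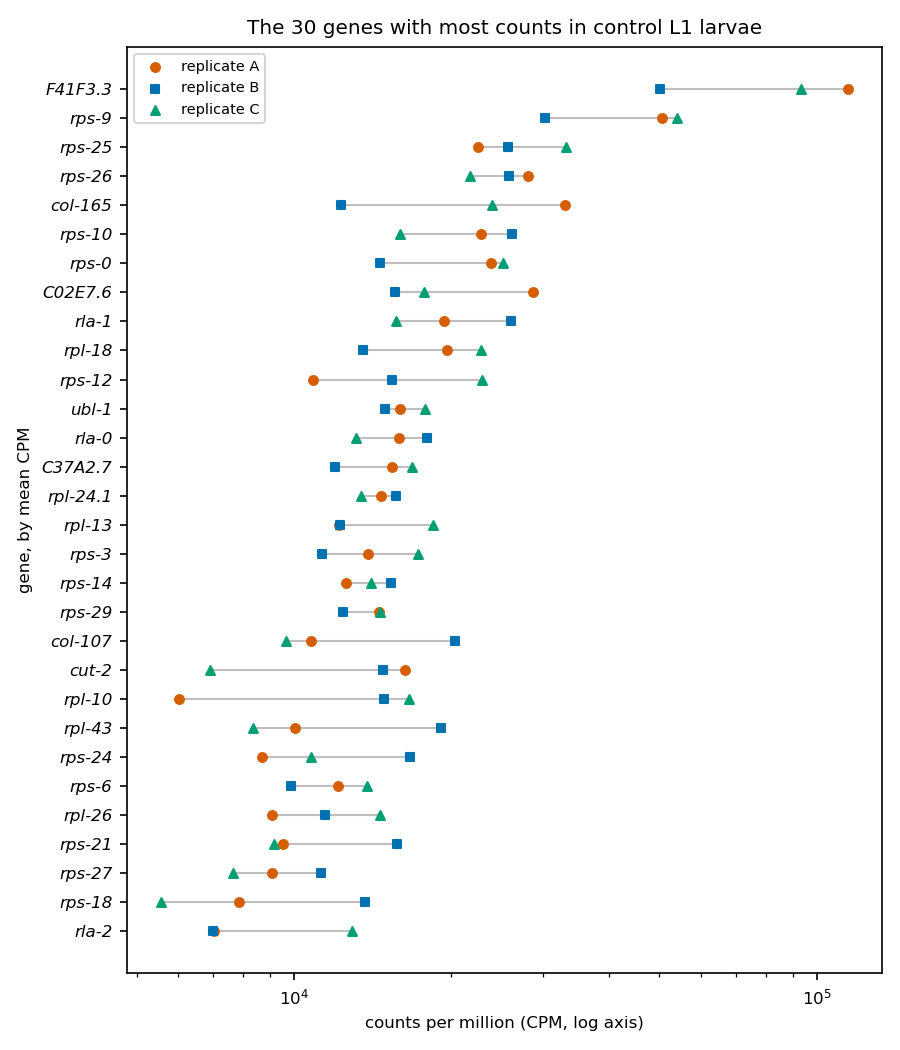
CPM on a log axis for the 30 genes with the highest mean, 1 row per gene, with a point for each control replicate and a grey line from the lowest to the highest. The list runs from a mean of 85960 CPM for *F41F3.3* to 8984 CPM for *rla-2*, and *F41F3.3* was the highest gene in each of the 3 libraries.

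The gene with the most counts was *F41F3.3*, an annotated protein-coding gene without a symbol on chromosome V of WBcel235, from 4647769 to 4648239. Its level was 114542 CPM in A, 50114 in B and 93223 in C. It was the highest gene in every library, and B was well below the other libraries, a 2.29-fold range. With TMM, a scaling that makes most genes alike between libraries, the range of *F41F3.3* was 1.33-fold. The 95% Wilson interval of its share in A ran from 11.437% to 11.471%, far narrower than the gaps between libraries. Counting intervals here cover counting error only, as reads from PCR are not independent molecules.

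By symbol, the 30 highest genes comprised 24 ribosomal protein genes, 2 collagens and 4 others, and together held 59.5%, 52.2% and 58.8% of the counts in A, B and C. After *F41F3.3* came *rps-9*, encoding a protein of the small ribosomal subunit, with 50626, 30182 and 53995 CPM. The third was *rps-25*, also of the small subunit, at 22524, 25662 and 33108 CPM. The 4 genes outside both families by symbol were *F41F3.3*, *C02E7.6*, *C37A2.7* and *cut-2*. The sequence names of *F41F3.3*, *C02E7.6* and *C37A2.7* do not show what they encode, so a ribosomal product is not excluded for them.

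*C02E7.6* lies on chromosome V and had 28638, 15618 and 17702 CPM. *C02E7.7*, on the same chromosome, had 7669, 15410 and 3648 CPM, highest in B and lowest in C on either scaling. The libraries fell in a different order for the pair by column sum, and in the same order with TMM. That order rests on a near tie, as *C02E7.6* had 21372 CPM in A and 21377 in B with TMM. *cut-2*, encoding a cuticlin of the insoluble cuticle layer, had 16292, 14792 and 6904 CPM and was lowest in C on either scaling. *R12E2.15* and *R12E2.14*, both on chromosome I, had nearly the same level in each library, at 5414, 7644 and 3246 CPM for *R12E2.15* and 5249, 7515 and 2983 CPM for *R12E2.14*. Whether the pair shares reads was not tested. No role is given to *C02E7.6*, *C02E7.7* and the *R12E2* pair by the annotation used here. *C02E7.7* and the *R12E2* pair were picked after their values were seen.

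The families were then ranked by the share of counts they held. Cytosolic ribosomal proteins came first with 52.7% ± 5.46 and cuticle collagens second with 9.03% ± 0.730 (SD, n = 3 for both). Muscle genes (1.03% ± 0.278) and neuropeptide and insulin genes (1.01% ± 0.250) followed, and no other family reached 1% on average. Translation factors held 0.739%, enzymes of central carbon metabolism 0.655%, genes of the mitochondrial DNA 0.528%, nuclear genes of oxidative phosphorylation 0.465% and heat shock proteins with other chaperones 0.432%. At the other end, 1012 chemoreceptor genes together reached 0.00573% and the 6 vitellogenin genes 0.000109%.

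**Figure D2:**
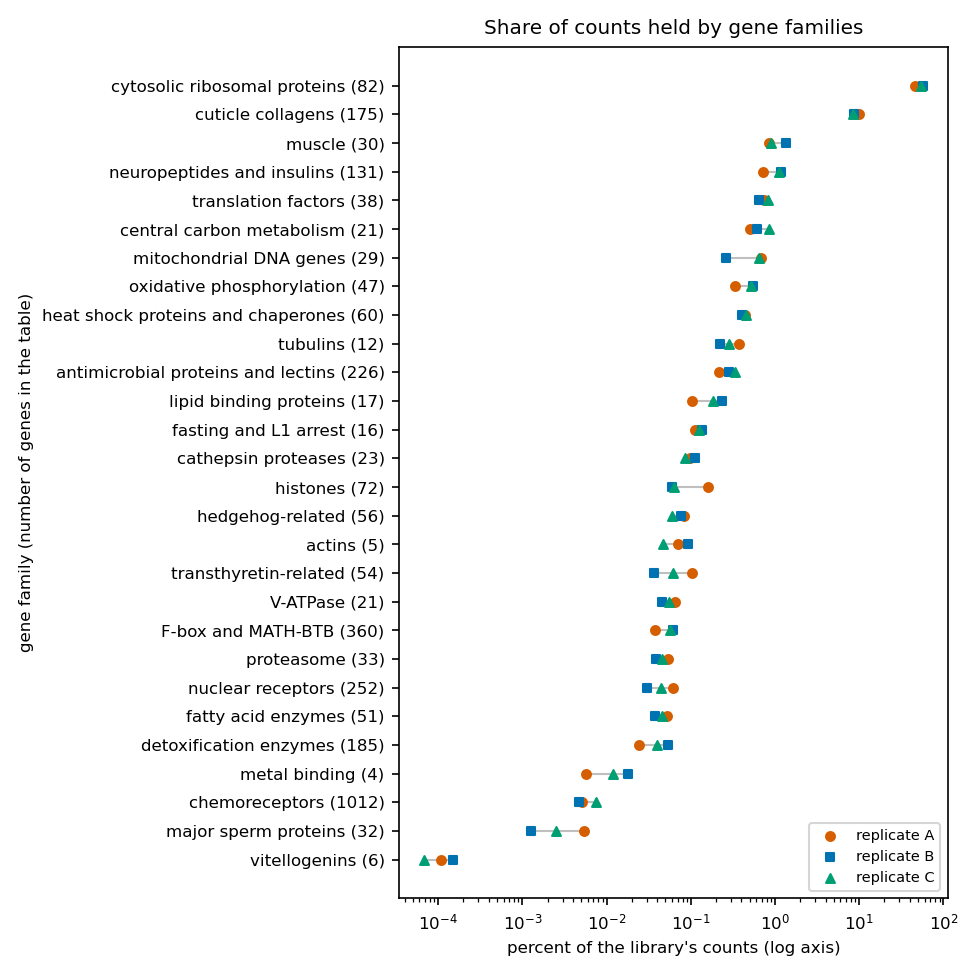
Percent of each control library's counts, on a log axis, for 28 gene families, with the number of genes of each family in parentheses and 1 point per replicate. Ribosomal proteins (46.6%, 57.0% and 54.7% in A, B and C) and cuticle collagens (9.86%, 8.76% and 8.48%) lie far to the right of the other families, and vitellogenins lie at the left end.

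How steady the genes were was measured by the ratio of the highest to the lowest library on the CPM + 1 scale, over the 3821 genes with a mean of at least 5 CPM. The ratio was past 2-fold for 2302 of these genes, or 60.2%. With TMM scaling it was past 2-fold for 1563 of 3726 genes, or 41.9%. These shares are the background against which the counts of family members below are set. The median coefficient of variation (CV) between the 3 libraries was 43.7%, where counting error alone would give a median of 6.95%. The CV was above the counting value for 3777 genes. Without A the number past 2-fold was 940, and without B it was 909, so the range between libraries rests largely on the distance between A and B.

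Level made only a modest difference. The median CV was 45.5% for genes at 5 to 20 CPM, 42.2% at 20 to 100 CPM, 36.2% at 100 to 1000 CPM and 33.9% for the 107 genes at 1000 CPM or more. The counting value fell over the same steps from 8.34% to 0.373%. Past 2-fold were 62.6% of the genes in the lowest bin and 44.9% in the highest.

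**Figure D3:**
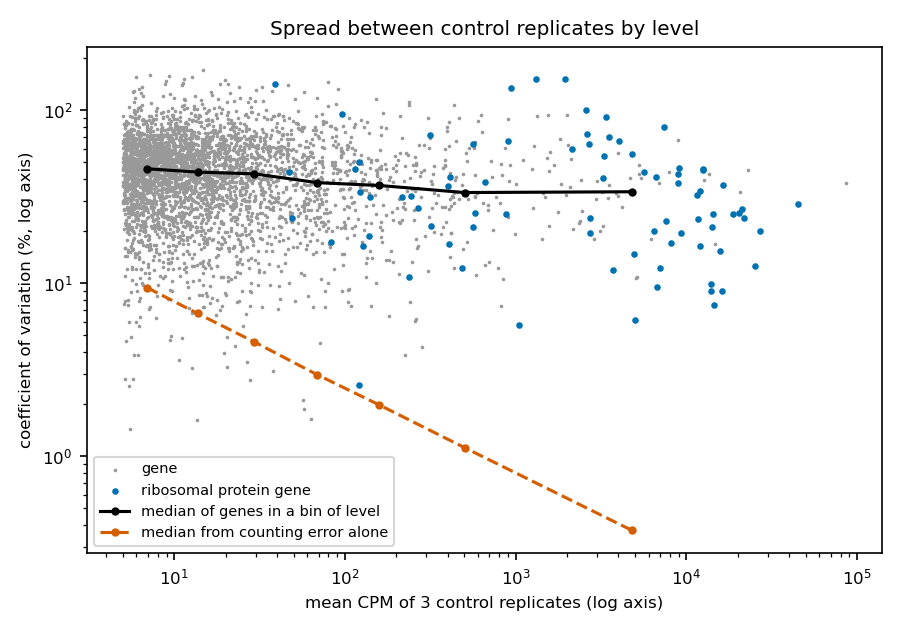
Coefficient of variation between the 3 control libraries against mean CPM, both on log axes, for the 3821 genes at 5 CPM or more (grey), with ribosomal protein genes in blue. The black line joins medians of genes in bins of level and stays between about the 45.5% of the lowest genes and the 33.9% of the highest, while the dashed line, the median expected from counting error alone, drops to 0.373%.

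The libraries differed as wholes. With scaling by column sum, A was the highest library for 2432 of the 3821 genes (63.7%) and B the lowest for 2362 (61.8%). The median gene in B lay 0.79 below A on the log2(CPM + 1) scale, and C lay 0.42 below A. With TMM these medians became -0.01 and -0.06, and the highest library was A for 1366 genes, B for 1534 and C for 921. The TMM factors were 1.34 for A, 0.731 for B and 1.02 for C. Across the 3821 genes, Pearson's r of log2(CPM + 1) was 0.865 between A and B, 0.924 between A and C and 0.916 between B and C, and Spearman's rho was 0.702, 0.798 and 0.770. These correlations are taken across genes within whole libraries, and genes are not independent replicates. Because the scaling shifts the typical gene by this much, a library is called high or low for a gene or family below with the TMM result beside it.

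Ribosomal protein genes held more than any other family, and some of them had the widest ranges of all genes. The 82 genes with *rps-*, *rpl-*, *rla-* or *ubl-1* symbols took 465695, 569563 and 546885 CPM in A, B and C, a CV of 10.4%. With TMM the sum was 347544, 779605 and 535372, a CV of 39.1%, so A was lowest and B highest on either scaling. Of the 82 genes, 81 were detected and 80 passed the minimum of 5 CPM. Among those 80, 31 were past 2-fold (38.8%), and 53 were past 2-fold with TMM. The median ratio was 1.72, against 2.22 over all 3821 genes, but with TMM the order reversed, at 2.43 against 1.82 over all genes. Many of these genes are among the 107 at 1000 CPM or more. By column sum those 107 had a median ratio of 1.92, with 44.9% past 2-fold, so all 3821 genes are not a comparison at like level.

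The small and large subunits differed in share and in spread. The 32 genes of the small subunit held 28.9%, 29.7% and 31.8% of the counts, a mean of 30.1% ± 1.46 (SD, n = 3) and a CV of 4.85%. The 47 *rpl-* genes of the large subunit held 13.4%, 22.2% and 18.8%, a mean of 18.1% ± 4.44 and a CV of 24.5%. The 3 *rla-* genes, for the acidic stalk proteins and their anchor, held 4.50% ± 0.514. With TMM the CV of the sum was 30.6% for the small subunit and 52.4% for the large one, the same order.

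Ribosomes hold most of their proteins in equal or nearly equal numbers, but the counts of these genes ranged over several orders of magnitude. The list also holds pairs of copies to which this need not apply, such as *rpl-11.1* with a mean of 4.83 CPM and *rpl-11.2* with 6720 CPM. A mean of at least 10000 CPM was reached by 21 genes, which together held 37.0% ± 2.09 of the counts. Another 30 lay between 1000 and 10000 CPM and held 14.7% ± 4.36. The remaining 31 genes lay below 1000 CPM and held 0.958% ± 0.295. Past 2-fold were 3 of the 21 highest genes, 16 of the 30 in the middle and 12 of the 29 low ones that passed 5 CPM, and with TMM 11, 24 and 18. A low level did not exclude steadiness by column sum, as *rps-7* had 118, 120 and 124 CPM in A, B and C, among the smallest ranges of any gene at 1.05-fold.

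The wide members were far outside the rest. *rpl-22* had 34.01 CPM in A, 3639 in B and 288 in C, the widest range of all 3821 genes at 104-fold. *rpl-38* had 129, 5375 and 367 CPM, and *rps-1* had 101, 2407 and 319 CPM. In these 3 genes B stood far above both other libraries.

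*rpl-21* had a different form, with 167 CPM in A against 6327 in B and 3604 in C, so that A alone was low. With TMM the ranges were 189-fold for *rpl-22*, 75.5-fold for *rpl-38*, 43.0-fold for *rps-1* and 68.9-fold for *rpl-21*. A was lowest and B highest in all 4 on either scaling.

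Past 4-fold were 13 ribosomal protein genes, named here after their values were seen: besides these 4, *rpl-32*, *rpl-37*, *rpl-36*, *rpl-19*, *rpl-41.1*, *rpl-3*, *rpl-14*, *rpl-7* and *rps-13*. B was the highest library in 12 of them on both scalings, and *rpl-37* was the exception, with 103 CPM in A, 7.42 in B and 6.43 in C. Over all genes past 4-fold, B was highest in 146 of 384 by column sum and in 315 of 349 with TMM. Together the 13 genes took 0.644% of the counts in A, 5.70% in B and 2.78% in C. The 49 genes not past 2-fold took 40.4%, 40.2% and 43.9%, a CV of 5.02%. Chosen by their spread as both groups were, these sums are given as a description. All 13 were also past 2-fold with TMM.

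**Figure D4:**
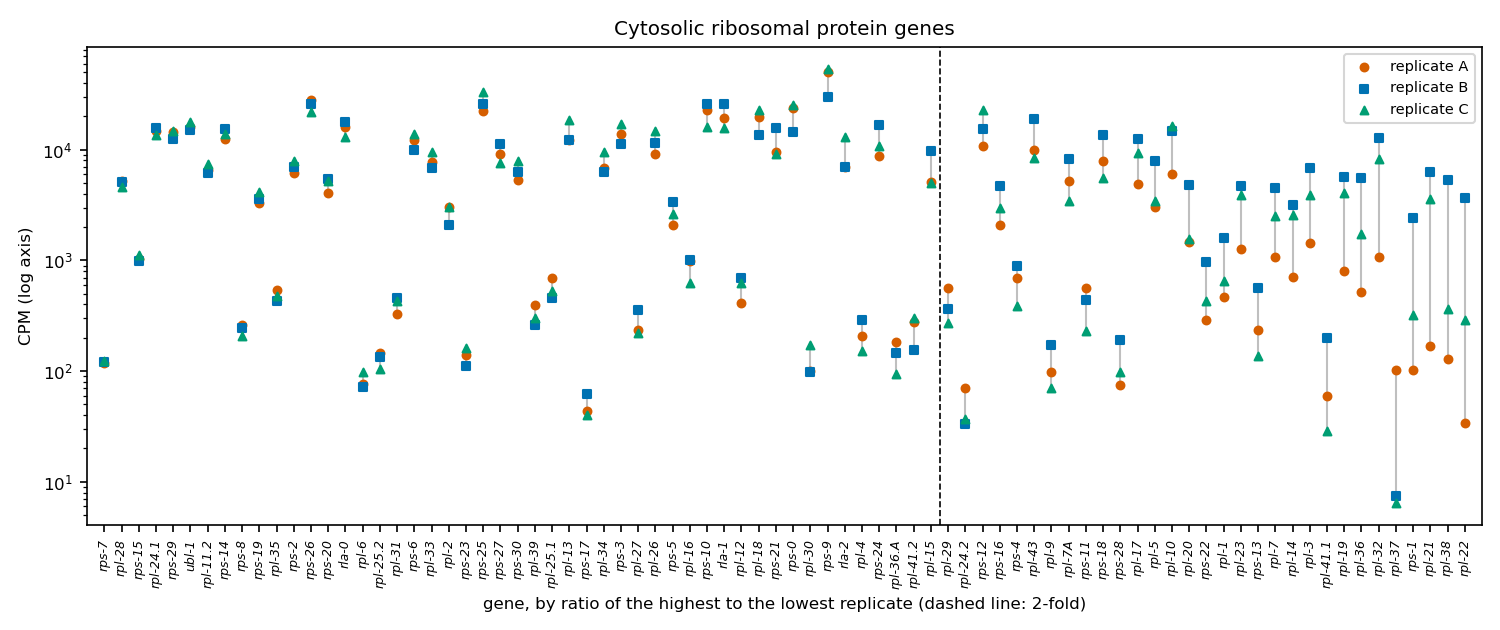
CPM on a log axis for the 80 ribosomal protein genes at 5 CPM or more, ordered by the ratio of their highest to lowest control library, with a dashed line at 2-fold. Most genes to the left keep their 3 points close together at any level, whereas at the right end, from *rpl-19* with 798 and 5642 CPM in A and B to *rpl-22* with 34.01 and 3639 CPM, B lies at the top and A at the bottom in every gene but *rpl-37*.

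Cuticle collagens form the other large block. They are secreted by the epidermis and assembled into the exoskeleton, and the *dpy*, *rol*, *sqt*, *bli* and *lon* members are known from mutants with altered body shape. The 175 genes took 98577, 87612 and 84753 CPM in A, B and C, a CV of 8.08% with A highest. With TMM the CV was 26.6% and B was highest. Of these genes 132 were detected, 10 had no count and 82 passed 5 CPM. Past 2-fold were 41 of the 82, or 50%, with a largest ratio of 7.10, and with TMM 49.

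A handful of collagens carried the block. *col-165*, on chromosome X, had 32996, 12297 and 23914 CPM, and *col-107*, on chromosome IV, had 10774, 20296 and 9671 CPM. The libraries ranked in different orders for them, since B was the lowest for *col-165* and the highest for *col-107* on either scaling. *col-42* followed with 3870, 8153 and 8611 CPM and *dpy-17* with 7680, 5409 and 2640 CPM. The 4 genes together held 4.88% ± 0.571 of all counts.

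The 156 genes with *col-* symbols and the 19 named for their mutants behaved unlike each other as sums. The *col-* genes took 85523, 78588 and 80160 CPM, a CV of 4.47%, and 26.7% with TMM. The other 19 took 13054, 9024 and 4593 CPM, a CV of 47.6%, and 45.1% with TMM, with C lowest on either scaling. Their sum came mainly from *dpy-17* and from *dpy-14*, with 2708, 2812 and 839 CPM, both lowest in C on either scaling. Of the 11 mutant-named genes at 5 CPM or more, 9 were past 2-fold, or 7 with TMM, and A was highest in 10, or in 7 with TMM. By column sum the lowest library was B in 6 of them and C in 5.

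Among the other genes of protein synthesis, *eef-2*, the translocation factor of the ribosome, had 5963, 5247 and 7444 CPM and made up most of the translation factor sum. *eef-1A.1*, one of a pair of near-identical genes for the factor that brings aminoacyl-tRNA to the ribosome, had 600, 473 and 292 CPM. Reads from near-identical copies can be lost or shared in counts of uniquely mapped reads, so this level is uncertain. Of 27 translation factor genes at 5 CPM or more, 18 were past 2-fold (66.7%), and 11 with TMM.

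Energy metabolism was represented by genes of both genomes. The 14 genes of the mitochondrial DNA that passed 5 CPM were all lowest in B by column sum, and B remained the lowest in their sum with TMM. Their sum was 6750, 2657 and 6432 CPM, and 5038, 3637 and 6296 with TMM. Past 2-fold were 12 of the 14, and 3 with TMM. *ND6*, a subunit of complex I, was among the highest with 925, 384 and 884 CPM.

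Nuclear genes of oxidative phosphorylation summed to 3311, 5442 and 5194 CPM, with A lowest on either scaling. Most members did not share that order by column sum, as A was the lowest library in 6 of 40 and the highest in 20, or in 8 with TMM. *cox-6C*, of cytochrome oxidase, had 605, 1733 and 2399 CPM, and *cox-5A* had 224, 915 and 565 CPM. Past 2-fold were 21 of 40 genes (52.5%), and 14 with TMM. The V-ATPase, the proton pump of intracellular membranes, was among the steadier complexes, with 6 of 19 subunit genes past 2-fold and a median ratio of 1.44. Its gene *vha-2* had 70.1, 62.6 and 61.3 CPM.

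Enzymes of central carbon metabolism took 5057, 6041 and 8547 CPM, mostly from *aldo-2*, a fructose-bisphosphate aldolase, with 3058, 4198 and 6755 CPM. Only 4 of 16 genes were past 2-fold (25%), and 5 with TMM. The level of *icl-1*, the enzyme of the glyoxylate cycle by which nematodes turn fat into sugar, was 574, 870 and 774 CPM. *pck-1*, the entry enzyme of gluconeogenesis, had 450, 230 and 322 CPM, and its 3 values lay within 1.07-fold with TMM. *gpd-2*, a glyceraldehyde-3-phosphate dehydrogenase with near-identical copies, had 55.6, 57.6 and 57.8 CPM, a level that is uncertain for that reason.

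A list of 16 genes linked to fasting and to L1 arrest, which includes *icl-1* and *pck-1*, summed to 1138, 1343 and 1267 CPM, a CV of 8.31%, and 38.1% with TMM. Its members were unequal. *mtl-1*, a metallothionein, had 8.61, 137 and 76.4 CPM, a 14.3-fold range with A lowest on either scaling. *acs-2*, an acyl-CoA synthetase of fatty acid oxidation, had 19.8, 54.5 and 30.7 CPM. Of the 9 genes at 5 CPM or more, 4 were past 2-fold.

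Chaperone genes had a narrow sum by column sum, with differing members. The 60 genes took 4454, 4016 and 4489 CPM, a CV of 6.10%, and 24.7% with TMM. *hsp-1*, the constitutive Hsp70, had 3124, 1319 and 2752 CPM, with B lowest on either scaling. *hsp-90* had 178, 1766 and 761 CPM, with B highest and A lowest on either scaling, a 9.87-fold range. Past 2-fold were 24 of 38 (63.2%), near the background, and 10 with TMM.

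Muscle was the highest family after ribosomal proteins and collagens, and genes of the cytoskeleton were lower. *mlc-2*, a myosin light chain, had 4449, 5204 and 5507 CPM, a narrow 1.24-fold range by column sum and 2.15-fold with TMM. *unc-27*, a troponin I of body-wall muscle, had 680, 2769 and 572 CPM, and *tni-1*, another troponin I, had 438, 1284 and 150 CPM. B was highest for both of these on either scaling. The sum of the muscle list was 8488, 13476 and 8865 CPM, and B was highest for 15 of its 26 genes, or 22 with TMM. Past 2-fold were 10 of the 26 (38.5%), and 20 with TMM.

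Tubulin was counted mainly from *tba-2*, an alpha-tubulin, with 2468, 1095 and 1978 CPM, while *tbb-1*, a beta-tubulin, had 274, 250 and 245 CPM. *tba-7*, also an alpha-tubulin, had 7.96, 146 and 65.9 CPM, a 16.5-fold range with A lowest on either scaling. Actins were modest. *act-3* had 317, 251 and 233 CPM and *act-1* had 86.1, 147 and 81.7 CPM, and as the muscle and body actin genes are near-identical, the split between them is uncertain. *act-5*, the actin of intestinal microvilli, had 125, 307 and 54.3 CPM.

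Peptide genes were led by members of the *nlp-24* to *nlp-34* group, several of which are known as epidermal antimicrobial peptides rather than neurotransmitters. These 11 genes took 6558, 10993 and 10162 CPM, against 232.5, 286.5 and 229.7 CPM for all 31 *flp-* genes and 31.97, 38.9 and 28.8 CPM for 34 insulin genes. The group was picked after its values were seen. *nlp-24* had 2727, 5059 and 2833 CPM, and *nlp-33* had 1523, 1126 and 1610 CPM. *nlp-28* had 5.69, 229 and 36.9 CPM, a 34.4-fold range with B highest on either scaling. Of the 38 peptide genes at 5 CPM or more, 17 were past 2-fold (44.7%), and 25 with TMM.

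Other secreted proteins of defence and digestion were lower. *cnc-8*, of the caenacin family of antimicrobial peptides, had 1060, 1408 and 1987 CPM, and *spp-14*, a saposin-like protein, had 129, 383 and 274 CPM. *asp-1*, an aspartyl protease of the intestine, had 379, 423 and 286 CPM. *cpr-1*, a cathepsin B-like protease, was among the widest genes, with a 15.1-fold range and A lowest on either scaling. *far-1*, a fatty acid and retinol binding protein that is secreted by nematodes, had 826, 2210 and 1641 CPM. Of 12 lipid binding protein genes, 11 were past 2-fold (91.7%), and 7 with TMM.

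Histone genes were mostly without counts, 44 of 72 at 0 in every library, which allows up to 0.219, 0.150 and 0.171 CPM for each in A, B and C. As background, mRNAs of core histones lack the poly-A tail that these libraries require, and their copies are near-identical. Those with counts include variants that carry a tail. *his-24*, a linker histone, had 1204, 230 and 373 CPM, with A highest on either scaling, and *his-72*, an H3.3 histone, had 161, 156 and 79.0 CPM.

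Few genes in the families of regulators and receptors reached 5 CPM. Over all 20351 genes, 10249 were detected and 3821 reached 5 CPM. Of 252 nuclear receptor genes, 130 were detected, near the share over all genes, and 19 reached 5 CPM. The highest was *nhr-58* with 150, 62.3 and 90.9 CPM, followed by *nhr-8* with 34.01, 16.1 and 25.7 CPM. Of 1012 chemoreceptor genes, expressed in a few sensory neurons each, 640 had no count and 22 were detected. *sra-14* alone passed 5 CPM, with 5.04, 6.52 and 9.73 CPM. Of 360 F-box and MATH-BTB genes, 68 were detected, and *bath-36* led them with 177, 529 and 446 CPM.

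The label of L1 larvae was set against markers of cell types and stages. All markers of intestine (10 of 10), body-wall muscle (8 of 8), pharynx (7 of 7), epidermis (7 of 7), neurons (10 of 10) and coelomocytes (2 of 2) were detected in every library. Detection asks only for more than 3 counts in every library, which 10249 of 20351 genes had. Some of these markers were low, such as *mtl-2* of the intestine list with 1.24, 0.652 and 1.65 CPM. Of 8 germ line genes, 5 were detected, led by *pgl-1*, a component of the P granules of germ cells, with 19.1, 16.3 and 18.4 CPM. Of 8 oocyte and eggshell genes only *oma-1* was detected, at 0.949, 0.251 and 1.02 CPM. None of 24 sperm genes was detected, and 18 of them had no count at all.

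Adult genes were at or near the floor as well, though 2 of the 8, *vit-6* and *col-140*, were detected. The vitellogenins, yolk proteins made in the adult intestine, summed to 1.095, 1.504 and 0.682 CPM, mostly from *vit-6* with 12, 17 and 6 counts. *col-19*, an adult collagen, had 6, 18 and 2 counts. Copies of the *msp* genes for major sperm proteins are near-identical, which makes their zeros uncertain, but the sperm gene *spe-11* also had no count. *ssq-2* and *ssq-1*, in the sperm-specific *ssq* family, were an exception with 30.1, 6.22 and 12.7 CPM for *ssq-2* and 20.6, 5.06 and 11.4 CPM for *ssq-1*. A was the highest library for both on either scaling.

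**Figure D5:**
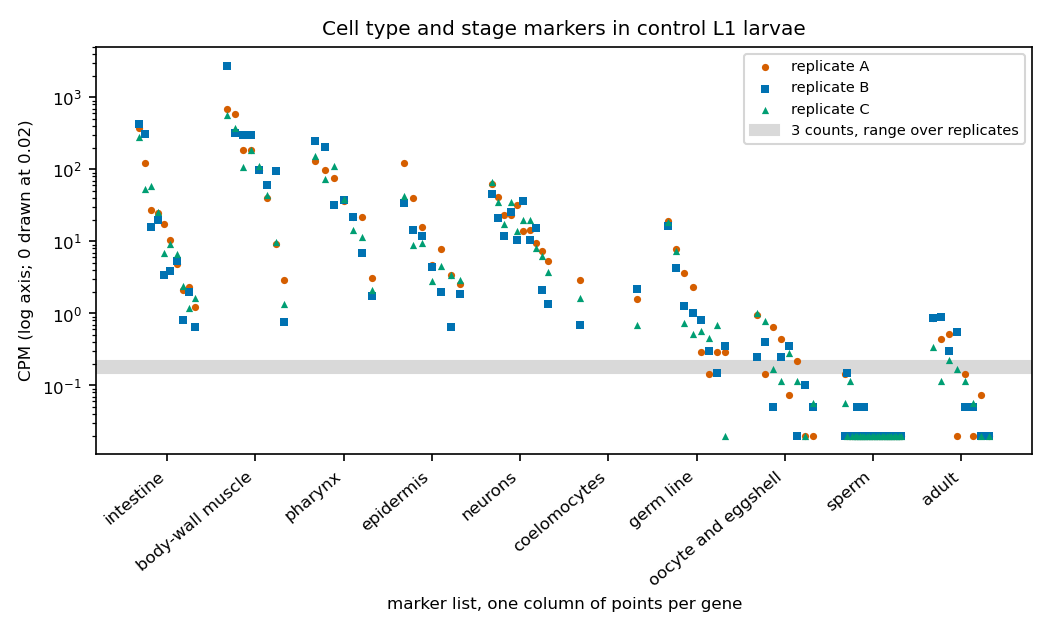
CPM on a log axis for each marker gene, 1 column of points per gene and 1 point per control replicate, with values of 0 drawn at 0.02 and a grey band at the level of 3 counts. Markers of the larval tissues lie above the band in all 3 libraries, whereas sperm genes lie at or below it and oocyte and adult genes lie around it, the highest oocyte marker, *oma-1*, reaching 1.02 CPM.

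Among the tissue markers the libraries did not fall in one order. The intestine list summed to 593, 782 and 453 CPM, the body-wall muscle list to 1783, 3941 and 1408 CPM, and the pharynx list to 387, 551 and 405 CPM, with each sum highest in B on either scaling. The intestine sum came mainly from *asp-1* and *act-5*, and by column sum B was the lowest library in 4 and the highest in 2 of its 7 genes at 5 CPM or more. With TMM, B was the highest library in 4 of these 7 genes. The epidermis list, led by the collagen *dpy-7* with 124, 34.6 and 42.7 CPM, summed to 198, 69.9 and 74.7 CPM and was highest in A on either scaling. The neuron list, with the neuropeptide processing helper *sbt-1* at 61.8, 45.3 and 67.7 CPM, was the narrowest of the 5 at 233, 180 and 228 CPM. Whether the pools differed in tissue makeup was not tested.

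Of 2 intestinal transcription factors, *elt-2* was a rare transcript and *elt-7* was higher. *elt-2*, the GATA factor of the intestine, had 2.34, 2.01 and 1.19 CPM, and its relative *elt-7* had 17.2, 3.41 and 6.995 CPM. *ges-1*, an esterase of the gut, had 29, 16 and 43 counts, and *gst-42*, a glutathione transferase, had 61, 22 and 81 counts. *T28H10.3*, a legumain-like gene now named *lgmn-1* in the annotation, had 12.4, 5.97 and 9.61 CPM, and the annotated interval overlaps that of *cal-1*.

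The study tried 6 genes as qRT-PCR references in young and old worms, and their ranges between these L1 libraries were read in the same way. By column sum, 5 of the 6 were past 2-fold, against 60.2% of all genes at 5 CPM or more. A was highest in all 6, against 63.7% of all those genes. *htz-1*, the H2A.Z histone, had 188, 50.7 and 52.8 CPM, and *cdc-42*, a small GTPase, had 39.2, 12.2 and 24.9 CPM. *let-70*, a ubiquitin-conjugating enzyme, was the narrowest with 27.7, 15.6 and 21.95 CPM. With TMM, *let-70* was at 20.7, 21.4 and 21.5, a 1.04-fold range, while *htz-1*, *tbb-2* and Y45F10D.4 remained past 2-fold and A was highest in 4 of the 6. Over all genes, 41.9% were past 2-fold with TMM, and A was highest in 35.75%.

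The 15 widest genes at 20 CPM or more had ranges from 14.8-fold to 104-fold, and from 10.8-fold to 189-fold with TMM. B was the highest library in 14 of them and A the lowest in 13 on either scaling. Besides the ribosomal protein genes named above, they include *hrg-10* with 0.511, 59.9 and 32.7 CPM, and *smg-8*, a factor of nonsense-mediated decay, with 1.68, 51.4 and 10.4 CPM. The exceptions to that order were *F53C11.9*, with 75.7, 3.16 and 12 CPM, and *R10F2.4*, lowest in C with 9.56, 84.3 and 4.44 CPM. Sequence names only are carried by 6 of the 15, these genes included. Past 10-fold were 46 genes by column sum, and 41 of them were past 10-fold under both scalings.

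The 15 steadiest genes at 20 CPM or more had ranges of 1.01-fold to 1.103-fold, and in 10 of them the CV was no larger than counting error alone gives. *pghm-1*, an enzyme of neuropeptide amidation, had 39.4, 39.0 and 39.2 CPM. *mai-1*, a mitochondrial ATPase inhibitor, and *gpd-2*, its neighbour on chromosome X, were both among them, and their annotated intervals overlap. *alh-8*, an aldehyde dehydrogenase, *oaz-1*, the ornithine decarboxylase antizyme, *nadk-1*, an NAD kinase, *tni-4*, a pharyngeal troponin I, and *ced-5*, of cell corpse engulfment, also belong to the group.

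This steadiness is a property of the column sum scaling. With TMM the same 15 genes had ranges of 1.66-fold to 1.96-fold. In all, 117 genes were under 1.2-fold by column sum and 263 with TMM, and 0 genes were under 1.2-fold with both, which follows from the 1.83-fold difference between the TMM factors of A and B. Past 2-fold under both scalings were 1163 of the 3685 genes kept under both. Wider ranges also depended on the scaling, since 384 genes were past 4-fold by column sum, 349 with TMM and 179 under both. Of the 384, A was the highest library in 221, and of the 349, B was the highest in 315.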

How the data were processed

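Poly-A RNA of control L1 larvae was sequenced by 3SEQ in 3 libraries, pooled by barcode before sequencing according to the study's methods. The file deposited by the authors holds raw read counts, as whole numbers, for 20351 genes. The submitters' processing notes name Bowtie 0.12.7. The counting tool, genome build and annotation are not given in the sources used here. The study's methods scale to uniquely mapped reads, so genes with near-identical copies are uncertain. Names and positions came from the WBcel235 annotation for 19872 rows, and 479 rows had no match (between 0.0429% and 0.0501% of counts). The RNAi columns were not used.

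Counts were divided by the column sum to give CPM. The ratio of highest to lowest library was taken on the CPM + 1 scale for genes with a mean of at least 5 CPM. CV is the SD over the mean of 3 values, and the counting CV is 1 over the square root of the mean count. With 1 group there was no contrast, and no test was run. Alternatives were TMM (edgeR 4.0.16) and DESeq2 1.42.0 size factors in R 4.3.3, column sums without the 100 highest genes, other minimums, pseudocounts and ratios, and leaving out each library. Tables were made with pandas 2.3.3.

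Genes named are mostly the 30 highest, the 4 highest of each family, the 15 widest and 15 steadiest at 20 CPM or more, the study's reference genes, 4 genes the study names in L1 larvae and the markers. Some others were named outside these lists, such as *C02E7.7*, the *R12E2* pair, *ubq-2*, *rack-1* and *rrn-3.1*. Families were defined by symbol. The libraries were taken by their labels, and the lists and the decision to describe these libraries were made with earlier results of these data known. *ins-9*, on the fasting list, was not analysed here.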

Additional observations from a re-analysis of the deposited data

How the results depend on the processing

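The share of counts in the 100 highest genes (83.1%) was 83.7% when genes were ranked within each library and 83.1% without rows that had no match in the annotation. The ribosomal protein share (52.7%) was 50.1% with the 10 highest genes left out of both the family sum and the total. It was 7.14% with the 100 highest left out of both, a step that removes 49 of these genes. The number of genes detected (10249) was 6749 at 1 CPM or more in every library and 16060 at 1 count in any. The number of genes past 2-fold (2302) was 1563 with TMM, 1567 with DESeq2 size factors and 2027 with column sums that leave out the 100 highest genes, and it moved by over 1.5 times with a minimum of 1 CPM (4119 of 8388 genes), a minimum of 20 CPM (734 of 1315), no minimum beyond 1 count in every library (4252 of 12419) and a ratio of 4 (384). Leaving out 1 library gave 909 to 1898 genes past 2-fold, 940 without A, 909 without B and 1898 without C, and a median CV of 29.4% to 51.0% against 43.7%. The same median was 33.6% with TMM. Of the 28 family and marker lists whose members past 2-fold were counted again, 12 moved by over 1.5 times with TMM, 18 without A, 25 without B and 9 without C. The count of genes under 1.2-fold under TMM was added after seeing the data. No paired analysis was possible because only 1 group was described. Depth limits the genes near 3 counts, while for genes at 5 CPM or more the counting error lay well below the spread between libraries.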

Other observations

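Non-coding RNA was a small and uneven part of the libraries. Ribosomal RNA genes took 2054, 615 and 2063 CPM in A, B and C, and the single gene *rrn-3.1* took 1980, 587 and 1987 CPM of it. B was the lowest library for this class on either scaling. Genes of the ncRNA class took 1885, 2841 and 1990 CPM, miRNA genes 550, 336 and 365 CPM, small nuclear RNA genes 105, 125 and 256 CPM, and tRNA genes 1.46, 4.26 and 2.22 CPM. Antisense partners cannot be told apart from sense genes here, because the sources used do not say whether strand was used in counting.

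The chromosomes held unequal shares of the RNA. Chromosome I took 23.2% ± 1.49 (SD, n = 3) of the counts, chromosome V 21.5% ± 3.07, chromosome IV 16.5% ± 1.54, chromosome III 16.5% ± 1.22, chromosome II 15.3% ± 1.18 and chromosome X 6.41% ± 1.02. Chromosome V, which holds *F41F3.3*, took 24.9%, 18.8% and 20.7% in A, B and C. That gene alone took 11.5%, 5.01% and 9.32% of the counts and is a large part of this sum.

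Some genes whose products also belong to the ribosome or ride on it, but which lie outside the family lists, showed wide ranges too, and were picked after their values were seen. *ubq-2*, encoding ubiquitin fused to a large subunit protein, had 217, 3114 and 1331 CPM, and *rack-1*, a scaffold protein of the small subunit, had 605, 3099 and 2360 CPM. A was lowest and B highest for both. That order was not particular to genes of the ribosome. Among the 15 widest genes of any kind, B was highest in 14 and A lowest in 13.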
